A study of Mus musculus with 9 samples.

Results

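The C1q/TNF proteins are a family of secreted proteins built on the same plan as adiponectin, the hormone of fat cells. The 9 genes C1qtnf1, C1qtnf2, C1qtnf3, C1qtnf4, C1qtnf5, C1qtnf6, C1qtnf7, C1qtnf9 and C1qtnf12 were followed by their symbols through the differentiation of 3T3-L1 cells, a clonal mouse fibroblast line that turns into adipocytes in culture. C1qtnf12 was listed under its older symbol Fam132a and was matched by its NCBI gene ID 67389. Of these 9 genes, called the members or the family below, 8 were among the 19094 genes listed in at least 1 sample. C1qtnf9 (239126) was listed in none. Adiponectin itself (Adipoq) served as a reference.

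RNA was sequenced from 9 samples, 3 at each of 3 stages. Day 0 cells were confluent preadipocytes before induction. Day 4 cells had received induction medium with dexamethasone, IBMX and insulin and then maintenance medium with insulin, and day 8 cells were mature adipocytes kept in the maintenance medium. All stages came from the same cell line in serum-containing high-glucose medium. The day 4 minus day 0 comparison is called the early phase, day 8 minus day 4 the late phase, and day 8 minus day 0 the whole process. The study's methods state that cells of each stage were pooled and also describe the samples as mixed RNA of different stages, and nothing states that the 3 samples of a stage were separate cultures, so the p-values measure only the spread between these samples. The sample labels' extraction text names dorsal root ganglia, whereas the cell line is given as 3T3-L1. Each sample held between 18216114 and 20452144 counts, so that a count of 0 allowed up to 3 counts, or 0.147 to 0.165 CPM (counts scaled to library size).

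The labelled cell type was first compared with its markers. All 10 adipocyte markers rose over 2-fold (edgeR adjusted p under 0.05) in the early phase and in the whole process. Of all genes tested, 9.77% and 10.3% did so. Fabp4, the fatty acid carrier of adipocytes, stood at 9.52 ± 1.57, 4052 ± 777 and 4828 ± 152 FPKM (fragments per kilobase, scaled to library size, with SD, n = 3) at days 0, 4 and 8. The 8 preadipocyte markers went in different directions. They summed to 21988 to 23606 CPM in day 0 samples, 16526 to 18438 CPM in day 4 samples and 30725 to 31614 CPM in day 8 samples, carried mostly by the collagen genes Col1a1 and Col1a2. Dlk1, the preadipocyte factor that holds back differentiation, stood at 828 ± 33.6, 181 ± 13.9 and 415 ± 5.57 FPKM. Ly6a went from 167 ± 3.73 to 38.8 ± 1.23 FPKM and Cd34 from 0.51 ± 0.14 to 0.207 ± 0.0577 FPKM between day 0 and day 8. In these bulk samples, a change in the number of cells of a type and a change in RNA per cell cannot be told apart. Of 9 sensory neuron markers, 8 were listed in at least 1 sample, and together they summed to 0.896 to 3.13 CPM per sample. Elavl4 was listed in no sample, while Snap25, a membrane fusion protein, stood at 0.0267 ± 0.0462, 1.12 ± 0.0473 and 1.1 ± 0.0493 FPKM. Calca was listed only at day 8, at 0.25 ± 0.0866 FPKM. Prph had means of 0.367, 0.0467 and 0.0567 FPKM and Tubb3 of 0.307, 0.06 and 0.123 FPKM at days 0, 4 and 8, both highest at day 0.

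C1q/TNF proteins carry a signal peptide, a collagen-like stretch with glycine at regular steps, and a globular C1q domain. The collagen-like stretches of 3 chains wind around each other, and these trimers can join into larger complexes before secretion. Adiponectin acts through the receptors AdipoR1 and AdipoR2 and binds T-cadherin, and its signal is passed on by the adaptor APPL1 and the kinase AMPK. Several C1q/TNF proteins are themselves made by fat tissue and affect glucose and lipid metabolism, although their receptors are less well defined.

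The shared plan can be read in the coding sequences. In the GENCODE vM21 coding sequences the longest uninterrupted run of 9-base units opening with a glycine codon had 22 units in Adipoq, from coding base 133 to 330. It had 23 units in C1qtnf5 (bases 88 to 294), 14 in C1qtnf6 (bases 247 to 372) and 8 in C1qtnf12 (bases 280 to 351). These runs are shown 5′ to 3′ for the reference and for the 3 members with the highest levels at day 8. Capitals mark the glycine codon (GGN) that opens each unit, and any other glycine codon is in lower case.
Adipoq: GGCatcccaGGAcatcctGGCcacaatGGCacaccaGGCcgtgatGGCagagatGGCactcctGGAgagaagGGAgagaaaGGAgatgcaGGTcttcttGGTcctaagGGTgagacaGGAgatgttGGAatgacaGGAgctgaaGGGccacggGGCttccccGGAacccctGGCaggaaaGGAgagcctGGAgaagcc
C1qtnf5: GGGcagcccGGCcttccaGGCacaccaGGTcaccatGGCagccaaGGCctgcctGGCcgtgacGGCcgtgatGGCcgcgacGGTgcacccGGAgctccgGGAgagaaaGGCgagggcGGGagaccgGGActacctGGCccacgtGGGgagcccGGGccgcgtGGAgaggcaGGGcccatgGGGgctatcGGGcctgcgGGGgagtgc
C1qtnf6: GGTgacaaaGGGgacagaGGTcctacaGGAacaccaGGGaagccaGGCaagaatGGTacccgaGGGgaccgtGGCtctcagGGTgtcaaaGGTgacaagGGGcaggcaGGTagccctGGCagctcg
C1qtnf12: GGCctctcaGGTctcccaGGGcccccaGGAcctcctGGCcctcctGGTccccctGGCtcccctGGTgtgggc
The run of C1qtnf12 was the shortest of the 3 and took up 7.79% of its codons, against 28.4% in C1qtnf5 and 26.7% in Adipoq. Among the other members the run had 37 units in C1qtnf9, 34 in C1qtnf2 and C1qtnf7, 23 in C1qtnf3 and 14 in C1qtnf1. C1qtnf4, a member built from a pair of C1q domains, had a run of only 2 units.

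Levels within the family were uneven, and C1qtnf6 led at every stage. The summed FPKM of the family was 57.7 ± 1.86, 92.1 ± 1.16 and 108 ± 3.05 at days 0, 4 and 8 (SD, n = 3). C1qtnf6 made up 77% ± 0.889, 69.3% ± 1.39 and 73.7% ± 1.97 of this sum. C1qtnf5 made up 18.1% ± 1.45, 25.8% ± 0.547 and 16.3% ± 0.74. The share of C1qtnf12 was 1.97% ± 0.515, then 3.87% ± 1.01 and finally 8.19% ± 1.22, and its samples did not overlap between stages. The levels were ordered C1qtnf6, C1qtnf5, C1qtnf1, C1qtnf12, C1qtnf3, C1qtnf7, C1qtnf4 and C1qtnf2 at day 0, where C1qtnf1 and C1qtnf12 overlapped, as did C1qtnf7 with C1qtnf4 and C1qtnf4 with C1qtnf2. From day 4 on C1qtnf12 stood above C1qtnf1 in every sample. C1qtnf7 and C1qtnf3 overlapped at day 4, and at day 8 C1qtnf7 stood above C1qtnf3 in every sample.

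**Figure D1:**
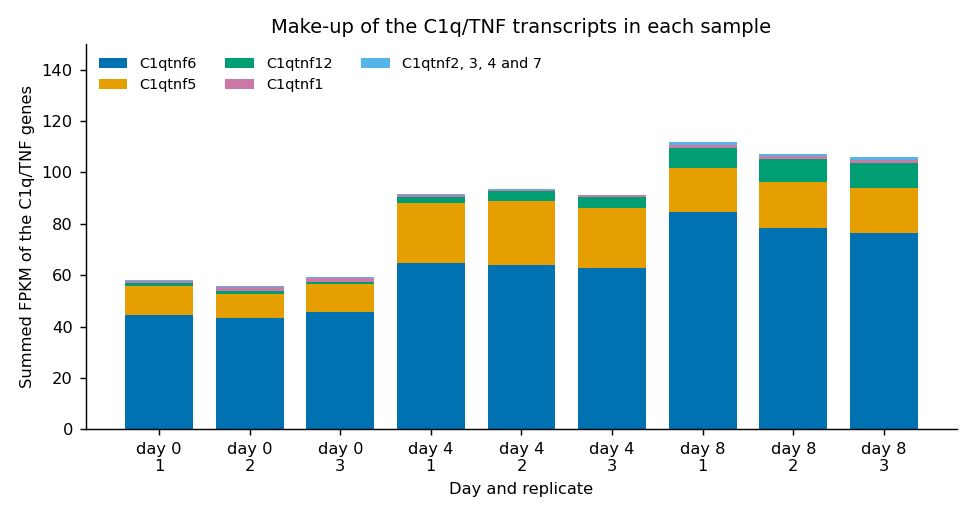
Stacked bars give the summed FPKM of the C1q/TNF genes in each of the 9 samples (horizontal axis, day and replicate), split by gene. C1qtnf6 is the largest layer in every sample, C1qtnf5 is widest at day 4, and C1qtnf12 widens from 1.97% of the sum at day 0 to 8.19% at day 8.

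Adiponectin gave the scale of the differentiation. Day 0 samples held 0.28 to 0.63 FPKM of Adipoq, day 4 samples 374 to 561 FPKM and day 8 samples 753 to 866 FPKM. At day 0 the family's summed FPKM exceeded that of Adipoq, with a ratio of Adipoq to the family of 0.00878 ± 0.00355, and at day 8 the ratio was 7.59 ± 0.755. Adipoq rose by 9.91 on the log2 scale in the early phase (SE 0.21, edgeR adjusted p = 1.1e-15) and by 0.86 in the late phase (SE 0.10, adjusted p = 5.5e-06). Ranked by mean FPKM among the 19094 genes, Adipoq moved from place 12008 to 146 and 63, and C1qtnf6 from 1766 to 1318 and 1003.

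Changes were tested across all genes with edgeR's quasi-likelihood test, and a gene was called when its Benjamini-Hochberg adjusted p was under 0.05 and its change over 2-fold. Of the 9 members, 6 could be tested, C1qtnf1, C1qtnf3, C1qtnf5, C1qtnf6, C1qtnf7 and C1qtnf12. C1qtnf7 passed the filter on low counts only through its day 8 samples, and C1qtnf3 would not have passed without its day 0 samples (3 over the limit, against 0 at day 4 and 2 at day 8), so the counts over tested members are given as a description. In the early phase 2 members, C1qtnf5 and C1qtnf12, were called higher, where 9.77% of the 13154 genes tested were, and C1qtnf3 was called lower, where 7.98% were. In the late phase 2 members, C1qtnf7 and C1qtnf12, were called higher (background 4.24%) and 0 lower (background 2.81%). In the whole process the same genes, C1qtnf7 and C1qtnf12, were called higher (background 10.3%) and 0 lower (background 7.7%). By adjusted p alone, 3 members were higher and 2 lower in the early phase, against 35.5% and 33.7% of all genes. The numbers were 4 and 1 in the late phase, against 22.5% and 22.7%, and 4 and 0 in the whole process, against 34.8% and 36.2%. At an unadjusted p under 0.05 (edgeR), 5 members were higher and 1 lower in the late phase, and 4 and 0 in the whole process. The share of all genes at that threshold is not given here, so these numbers are a description. No setting or tool tried called a member lower in the late phase or the whole process.

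**Figure D2:**
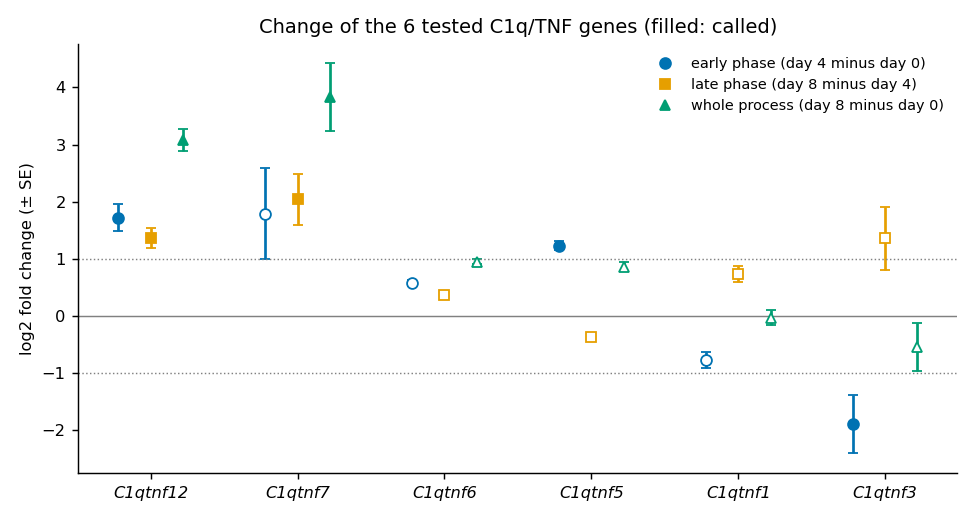
Points give the log2 fold change of the 6 tested C1q/TNF genes in the early phase (circles), late phase (squares) and whole process (triangles), with bars for the SE from edgeR and filled symbols for called changes. C1qtnf12 is filled in all 3 comparisons, and C1qtnf5, C1qtnf1 and C1qtnf3 have early and late changes of opposite sign.

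C1qtnf12, which encodes the insulin-sensitizing adipokine adipolin, was called in all 3 comparisons. Its level was 1.18, 1.37 and 0.85 FPKM in the day 0 samples, 2.51, 3.89 and 4.30 FPKM at day 4 and 7.68, 9.01 and 9.83 FPKM at day 8. No sample of one stage overlapped with another stage. C1qtnf12 rose by 1.72 on the log2 scale in the early phase (SE 0.23, edgeR adjusted p = 5.2e-06) and by 1.36 in the late phase (SE 0.17, adjusted p = 6.9e-06). Over the whole process the change was 8.45-fold (log2 3.08, SE 0.20, adjusted p = 1.1e-09). These values rested on 23 to 33 counts per sample at day 0 and 205 to 259 at day 8. Its transcripts shared no stretch of 50 bases with other genes in GENCODE vM21, and its exons overlapped none.

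C1qtnf6, a member known from stromal cells and linked to the alternative complement pathway, was the most abundant and rose at each step by less than 2-fold. It stood at 44.4, 43.4 and 45.6 FPKM in the day 0 samples, 64.9, 64.1 and 62.6 FPKM at day 4 and 84.7, 78.2 and 76.3 FPKM at day 8. The stages did not overlap. C1qtnf6 rose by 0.58 on the log2 scale in the early phase (SE 0.05, edgeR adjusted p = 1.8e-08), by 0.37 in the late phase (SE 0.05, adjusted p = 1.1e-05) and by 0.95 in all (SE 0.05, adjusted p = 4e-11). With 1844 to 3991 counts per sample it was the most deeply counted member. A predicted gene on the opposite strand, Gm49490, shares 117 exon bases with it, and whether the counting used strand is not given in the sources used here.

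C1qtnf5, known for a mutation that causes late-onset retinal degeneration, was highest at day 4. Its level was 11.2, 9.17 and 10.96 FPKM at day 0, 23.1, 24.6 and 23.5 FPKM at day 4 and 17.2, 17.9 and 17.6 FPKM at day 8. All day 8 samples lay between those of day 0 and day 4. C1qtnf5 rose by 1.23 on the log2 scale in the early phase (SE 0.08, edgeR adjusted p = 7e-10) and then fell by 0.37 (SE 0.07, adjusted p = 0.00071), and day 8 remained above day 0 by 0.86 (SE 0.08, adjusted p = 7.6e-08).

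The C1qtnf5 count cannot be fully separated from that of Mfrp, the membrane frizzled-related protein gene, because the genes share a transcription unit. Of the distinct 50-base stretches in C1qtnf5 transcripts, 84.5% also occur in Mfrp transcripts, and 33.3% of those of Mfrp occur in C1qtnf5. Exons of the opposite-strand gene Gm20444 overlap it by 648 bases. C1qtnf5 had fractional expected counts in 9 of 9 samples, and its sum with Mfrp was whole, within 0.02, in 9 of 9. Mfrp took 1.7% to 2.49% of that sum. With the counts of both genes summed, a setting chosen after seeing the data, the changes were 1.23, -0.37 and 0.86.

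C1qtnf1, known from the vessel wall and as an inhibitor of platelet aggregation, was lowest at day 4. Its level was 1.12, 1.37 and 1.41 FPKM at day 0, 0.66, 0.77 and 0.73 FPKM at day 4 and 1.19, 1.13 and 1.17 FPKM at day 8. The day 4 samples lay below all others, while days 0 and 8 overlapped. C1qtnf1 fell by 0.77 on the log2 scale in the early phase (SE 0.14, edgeR adjusted p = 0.00014) and rose by 0.73 in the late phase (SE 0.14, adjusted p = 0.00053). The difference over the whole process was -0.03 (SE 0.13, adjusted p = 0.82), and its sign turned without day 0 replicate 2 or 3. The opposite-strand gene Gm11747 shares 642 exon bases with C1qtnf1.

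C1qtnf3 and C1qtnf7 were counted by few reads. C1qtnf3, first described in developing cartilage, had 17, 16 and 18 counts at day 0, 7, 0 and 6 at day 4 and 9, 12 and 12 at day 8. Every day 4 sample lay below every other sample. C1qtnf3 fell by 1.90 on the log2 scale in the early phase (SE 0.51, edgeR adjusted p = 0.0033), and with no filter on low counts the value was -1.90 (SE 0.50, adjusted p = 0.0017). It was -0.32, under 2-fold, with limma on log2(FPKM + 1), and C1qtnf3 could not be tested when 10 counts were required in every sample. The ratio of summed counts, scaled to depth, was 0.25 with an exact 95% interval of 0.125 to 0.466, which covers counting error only. The later difference of 1.36 missed the threshold (SE 0.55, edgeR adjusted p = 0.054), and it depended on the day 4 samples. It was 1.87 without replicate 1 (adjusted p = 0.035) and 0.81 without replicate 2 (adjusted p = 0.14). With edgeR's exact test the late change passed (adjusted p = 0.017). Between day 0 and day 8 the difference of C1qtnf3 was -0.54 (SE 0.42, edgeR adjusted p = 0.26), which was not called.

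C1qtnf7, one of the least studied members, had 0, 1 and 2 counts at day 0, 5, 3 and 3 at day 4 and 15, 13 and 17 at day 8. The stages did not overlap, although all day 0 counts were under the limit of 3 counts and 2 of the 3 day 4 counts were at it. The ratio of its summed counts at day 8 to day 4 was 4.09 (exact 95% interval 2.08 to 8.77), and that of day 8 to day 0 was 14.7 (4.72 to 74). Because it entered the test only through the day 8 samples, where it was high, it was also fitted with no filter on low counts. The log2 fold change was then 2.05 in the late phase (SE 0.53, edgeR adjusted p = 0.0023) and 3.83 in the whole process (SE 0.67, adjusted p = 7.3e-06), beside 2.04 (adjusted p = 0.0016) and 3.83 (adjusted p = 2.3e-05) with the filter. With limma on log2(FPKM + 1) the values were 0.47 and 0.61, both under 2-fold, and C1qtnf7 could not be tested when 10 counts were required in every sample. Leaving out 1 sample at a time moved the whole-process value between 3.28 and 4.65, the highest being without day 0 replicate 3. In the early phase the ratio of summed counts was 3.6 (0.95 to 20.1). The fitted early change was 1.79 on the log2 scale (SE 0.80, edgeR adjusted p = 0.057). That change was 2.61 without day 0 replicate 3 (edgeR adjusted p = 0.037) and 1.23 without day 0 replicate 1 (adjusted p = 0.18).

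The remaining members had few counts or none. C1qtnf2, an adipose and muscle factor of lipid metabolism, had 3 counts and 1 count in day 8 replicates 1 and 3 and was not listed elsewhere. C1qtnf4 had 1 count in day 0 replicate 1 and 1 in day 8 replicate 2. C1qtnf9, a close paralog of adiponectin, was listed in no sample, and whether the annotation used for counting held it is not given in the sources used here.

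**Figure D3:**
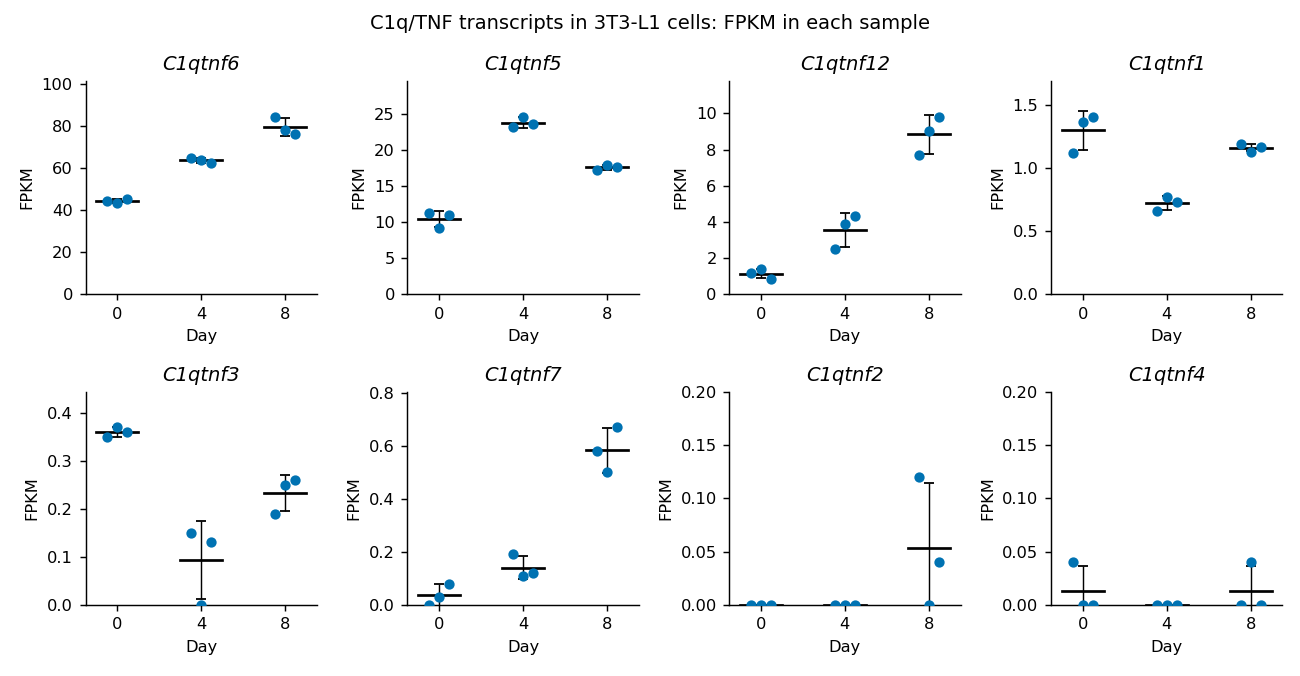
Each panel gives the FPKM of a C1q/TNF gene (vertical axis, own scale) in the 9 samples by day, with points for samples, a line for the mean and bars for the SD (n = 3), and samples in which a gene was not listed drawn at 0. C1qtnf6, C1qtnf12 and C1qtnf7 are highest at day 8, C1qtnf5 at day 4, C1qtnf3 at day 0, and C1qtnf1 is lowest at day 4.

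Genes with the most similar profile were sought among 11467 genes whose average log2 CPM reached 1, by the root mean square difference of log2 CPM centred on each gene's mean over the 9 samples. For C1qtnf12 they were the imprinted gene Peg10 (difference 0.173), Pfkfb1, an enzyme that sets fructose 2,6-bisphosphate (0.186), and Ltc4s, leukotriene C4 synthase (0.248). Peg10 went from 15.7 to 51.8 and 122 FPKM. For C1qtnf5 they were 1810058I24Rik (0.052), the cofilin phosphatase gene Ssh2 (0.063) and Zcchc24 (0.067). C1qtnf6 was closest to Inpp5a, an inositol phosphate phosphatase (0.055), Mylip, a ubiquitin ligase for the LDL receptor (0.060), and Coq7, an enzyme of ubiquinone synthesis (0.061). C1qtnf1 was closest to 2010204K13Rik (0.091), the oxysterol-binding protein gene Osbpl3 (0.101) and the glutathione transferase gene Gstt1 (0.102). C1qtnf3 and C1qtnf7 were too low for this comparison.

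**Figure D4:**
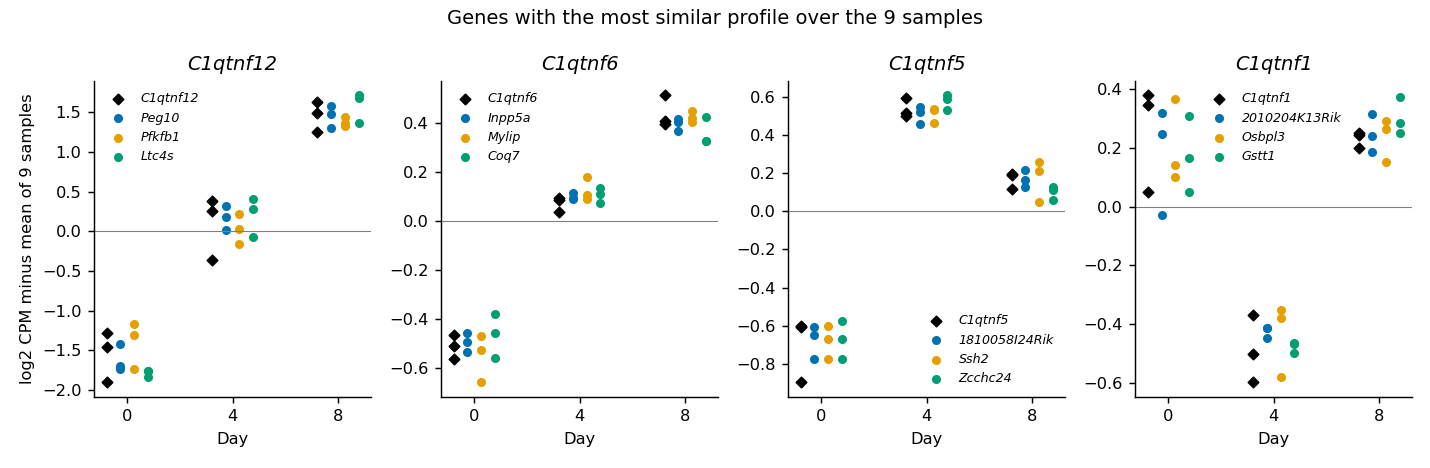
Panels give log2 CPM minus the mean of 9 samples against day for C1qtnf12, C1qtnf6, C1qtnf5 and C1qtnf1 (black diamonds) and the 3 genes closest to each (coloured circles), 1 symbol per sample. The profiles climb through both phases for C1qtnf12 and C1qtnf6, peak at day 4 for C1qtnf5 and dip at day 4 for C1qtnf1.

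Of the 5 genes for adiponectin receptors and adaptors, 2 were called higher in the early phase, 0 in the late phase and 1 in the whole process, with 0 called lower. The shares of all genes called higher were 9.77%, 4.24% and 10.3%, and lower 7.98%, 2.81% and 7.7%. By adjusted p alone 3, 2 and 3 of the receptor and adaptor genes were higher (all genes 35.5%, 22.5% and 34.8%) and 1, 2 and 2 lower (all genes 33.7%, 22.7% and 36.2%), and their median log2 fold change was 0.19, 0.13 and 0.34, beside 0.02, -0.01 and -0.02 for all genes tested. Adipor2, an adiponectin receptor, stood at 18.9 ± 0.88, 58.6 ± 2.96 and 78.9 ± 5.88 FPKM and rose by 1.70 on the log2 scale in the early phase (SE 0.06, edgeR adjusted p = 1.1e-12). Adipor1 stood at 48.8 ± 0.903, 51.4 ± 0.322 and 57.3 ± 0.517 FPKM. Cdh13, the gene of T-cadherin, was at 36.6 ± 0.95, 82.4 ± 9.5 and 43 ± 1.39 FPKM. Like C1qtnf5, Cdh13 was highest at day 4, with log2 changes of 1.24 (SE 0.07, edgeR adjusted p = 9.7e-11) and -0.89 (SE 0.07, adjusted p = 2e-08). Appl1 fell by 0.40 on the log2 scale in the early phase (SE 0.06, edgeR adjusted p = 2.3e-05).

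Of 12 AMPK pathway genes, 0 were called in the early phase, where 9.77% of all genes were called higher and 7.98% lower. Later, 1 gene was called higher and 0 lower, both against day 4 (all genes 4.24% and 2.81%) and against day 0 (10.3% and 7.7%). By adjusted p alone (edgeR), 4 were higher and 2 lower in the early phase (all genes 35.5% and 33.7%), 3 and 0 in the late phase (22.5% and 22.7%) and 8 and 1 over the whole process (34.8% and 36.2%). The median log2 fold changes of the AMPK list were 0.13, 0.11 and 0.35. That gene was Prkaa2, a catalytic subunit, with a late change of 1.19 (SE 0.20, edgeR adjusted p = 0.00017) at a level of only 0.41 ± 0.02 FPKM at day 8. The other catalytic subunit gene, Prkaa1, stood at 20.5 ± 0.218, 21.7 ± 1.27 and 21 ± 1.1 FPKM.

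Trimers of this family are hydroxylated, glycosylated and disulfide-bonded before release. Of 14 genes listed for the folding and secretion of proteins with a collagen-like stretch, 13 could be tested. In the early phase 1 was called higher and 1 lower, in the late phase 3 and 0, and in the whole process 6 and 1. The shares of all genes called higher and lower were 9.77% and 7.98%, then 4.24% and 2.81%, and 10.3% and 7.7%. By adjusted p alone the folding genes higher and lower numbered 8 and 2, 9 and 1, and 10 and 1, where all genes gave 35.5% and 33.7%, 22.5% and 22.7%, and 34.8% and 36.2%. Their median log2 fold changes were 0.16, 0.54 and 0.63. Ero1a, an oxidase of the endoplasmic reticulum that with Erp44 controls adiponectin release, rose by 2.43 on the log2 scale in the late phase (SE 0.13, edgeR adjusted p = 4.3e-10), from 44.4 ± 3.78 to 232 ± 50.5 FPKM. Erp44 stood at 26.4 ± 1.3, 24.7 ± 1.16 and 26.9 ± 1.14 FPKM. Plod1, a lysyl hydroxylase, rose by 1.24 in the early phase (SE 0.07, edgeR adjusted p = 3e-10). The prolyl hydroxylase subunits differed in direction over the whole process. P4ha1 rose by 1.25 (SE 0.07, edgeR adjusted p = 1.2e-10) and P4ha2 by 1.35 (SE 0.08, adjusted p = 1.6e-10). P4hb rose by 0.63 (SE 0.05, adjusted p = 7.7e-09), and only P4ha3 fell, by 1.10 (SE 0.12, adjusted p = 3.2e-07). Furin, a protease that cleaves adipolin, rose by 0.69 in the early phase (SE 0.06, edgeR adjusted p = 1.1e-08) and fell by 0.69 in the late phase (SE 0.06, adjusted p = 4.4e-08).

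Of 21 other genes with a C1q domain, 11 were listed and 6 could be tested. In the early phase 2 were called lower and 0 higher, in the late phase 2 higher and 0 lower, and in the whole process 1 in each direction. All genes were called lower in 7.98% and higher in 9.77% of cases early, higher in 4.24% and lower in 2.81% late, and higher in 10.3% and lower in 7.7% over the whole process. By adjusted p alone 1, 2 and 1 of the relatives were higher (all genes 35.5%, 22.5% and 34.8%) and 2, 0 and 3 lower (33.7%, 22.7% and 36.2%), with median log2 fold changes of -0.13, 0.17 and -0.26. Col8a1, a short-chain collagen gene, fell by 3.87 on the log2 scale in the early phase (SE 0.17, edgeR adjusted p = 8.3e-12), from 6.33 ± 0.438 to 0.413 ± 0.205 FPKM, and rose by 1.52 in the late phase (SE 0.21, adjusted p = 2.3e-05). Emilin2, an elastic fibre protein, rose by 2.01 in the late phase (SE 0.23, edgeR adjusted p = 3.2e-06). The complement genes C1qa, C1qb and C1qc, which macrophages express, were listed in no sample.

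**Figure D5:**
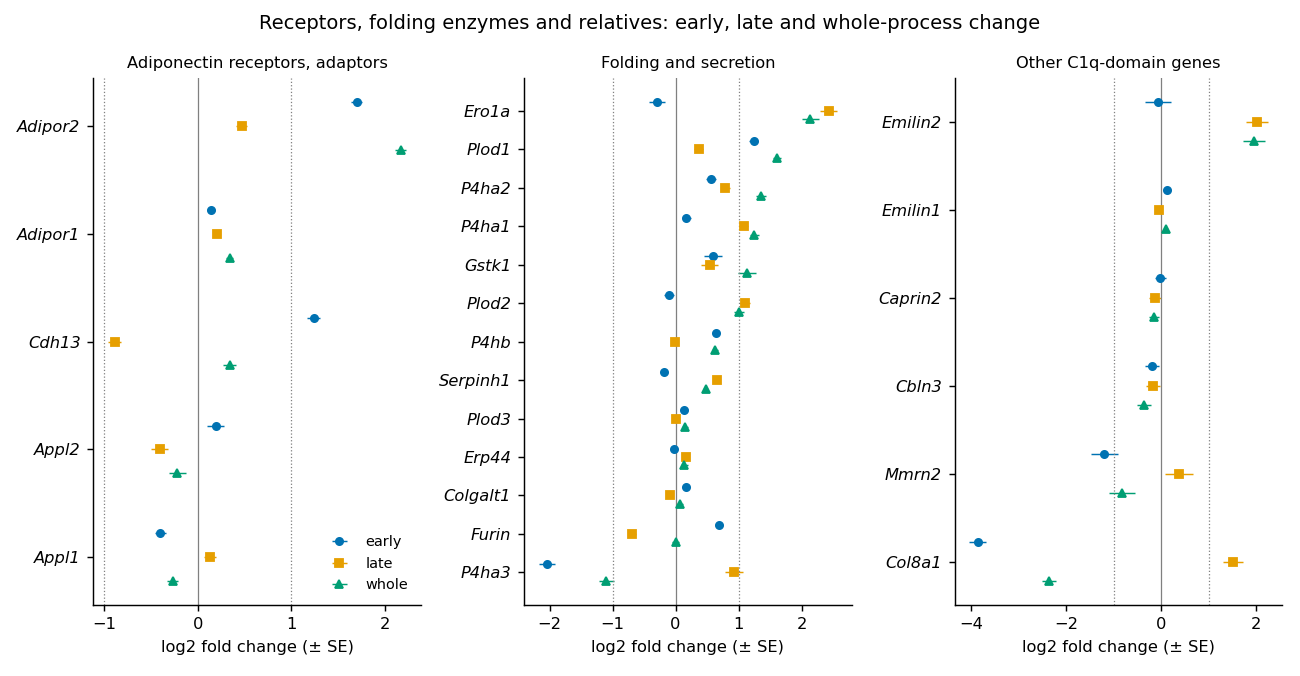
Points give log2 fold changes with SE (edgeR) for the tested receptor and adaptor genes (left), folding and secretion genes (middle) and other C1q-domain genes (right) in the early phase (circles), late phase (squares) and whole process (triangles), with dotted lines at 2-fold. Adipor2 and Ero1a reach 2.17 and 2.14 over the whole process, and Col8a1 lies at -3.87 in the early phase.

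Promoter windows of 250 bases before to 50 after the start were found in RefSeq (GRCm38.p6) for Adipoq and for C1qtnf2, C1qtnf3, C1qtnf5, C1qtnf6, C1qtnf7 and C1qtnf9, that of C1qtnf5 being the same as for Mfrp. On both strands, none of these windows held the letters AGGTCA, a nuclear receptor motif, which occur in 16.3% of all 32851 windows. None held a direct repeat of AGGTCA with 1 base between (0.0396% of windows, a pattern that includes the single site) or TTGCNNAA, a C/EBP-type pattern (10.8%).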

How the data were processed

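Total RNA of 3T3-L1 cells was sequenced at a sequencing centre, and per the methods of the authors reads were mapped with HISAT/Bowtie2 and genes quantified with RSEM. The submitters' processing notes name CASAVA 1.4 and Bowtie2. Genome build, annotation and other versions are not given in the sources used here. The labels name a BGIseq500 library kit and the methods an Illumina sequencer. The deposited tables hold, per gene and sample, expected counts (29.8% not whole), FPKM values and a transcript length in bases, all as the authors computed them. Unlisted genes were taken as 0. Symbols that had become dates (26) were restored from the gene IDs, of which 19040 of 19094 were in the RefSeq table.

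Expected counts were rounded and fitted over all 9 samples, 1 coefficient per day, with edgeR 4.0.16 (TMM, filterByExpr with a minimum of 10 counts, glmQLFit and glmQLFTest). P-values were Benjamini-Hochberg adjusted over 13154 genes. The common biological coefficient of variation was 0.0538. On data simulated for the early phase over 13154 genes, the fit recovered 198 of 200 genes changed by 2 on the log2 scale, a larger change than the calling threshold of 1. The simulation gave every gene the same common spread. It therefore does not show how the fit does for genes with few counts, such as C1qtnf3 and C1qtnf7, or with a wider spread. Replicates of a day differed by more than sampling noise (chi-square per gene 2.4 to 10.7). Depth was 18216114 to 20452144 counts per sample (median 20182731), and intervals cover counting error only.

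The members and gene lists were chosen with earlier results of these data known. Named genes were all members, Adipoq, genes of the lists, and the 3 genes most similar to each member whose average log2 CPM reached 1. A protein table was not used here, so glycine codons were counted in GENCODE vM21 coding sequences, the longest per gene, and protein identity was not computed. The alternatives were RLE scaling or scaling to library size alone, no filter or 10 counts in every sample, DESeq2 1.42.0, edgeR's exact test, limma 3.58.1 on log2(FPKM + 1) and log2(FPKM + 0.1), only the 2 days compared, a replicate block, summed C1qtnf5 and Mfrp counts, and leaving out each sample.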

Additional observations from a re-analysis of the deposited data

How the results depend on the processing

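Changes of the members kept their direction and their side of the threshold in 344 of the 352 combinations of member, comparison and setting that could be tested. The 352 leave out C1qtnf3 and C1qtnf7 where 10 counts were required in every sample. With only the 2 days compared, they also leave out the late change of C1qtnf3 and the early change of C1qtnf7. With at least 10 counts required in every sample, 4 members and 11799 genes in all were tested. The members called were 0 lower in the early phase, 1 higher in the late phase and 1 higher in the whole process. All genes called were 831 higher and 754 lower in the early phase. They were 310 and 173 in the late phase and 913 and 682 in the whole process. With limma on log2(FPKM + 1), a scale that shrinks changes of low genes, the members called were again 0 lower in the early phase, 1 higher in the late phase and 1 higher in the whole process. Of the 13154 genes tested, 708 were then called higher and 565 lower in the early phase. The numbers were 224 and 136 in the late phase and 753 and 528 in the whole process. On that scale C1qtnf3 changed by -0.32 in the early phase, and C1qtnf7 by 0.47 in the late phase and 0.61 in the whole process, each under 2-fold. The late change of C1qtnf3 passed with edgeR's exact test (1.36, adjusted p = 0.017). With limma it was 0.18 on log2(FPKM + 1) (limma adjusted p = 0.039) and 0.89 on log2(FPKM + 0.1) (adjusted p = 0.033), both under 2-fold. Leaving out 1 sample at a time, the members called higher were 2 to 3 in the early and late phases. All genes called higher were then 1262 to 1347 and 548 to 589, of 13289 to 13333 tested. The whole-process change of C1qtnf1 ranged from -0.14 to 0.03 and was positive without day 0 replicate 2 (0.01) or replicate 3 (0.03). The early change of C1qtnf7 ranged from 1.23 to 2.61 and the late change of C1qtnf3 from 0.81 to 1.87. Deviations of same-numbered samples had a mean correlation of 0.0308, against -0.0154 for other numbers. None of the 9 same-numbered pairs passed 0.1, so the numbers were not taken to pair the samples, although 6 of 9 samples were closest to their own number. With the replicate block, 1287 genes were called higher and 1053 lower in the early phase, 556 and 367 in the late phase, and 1360 and 1010 in the whole process, and no member's call changed. Depth limits C1qtnf2 and C1qtnf4, and leaves C1qtnf3 and C1qtnf7 with wide intervals.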

Other observations

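Markers of other cell types were summed in each sample, and their part in any member's change was not tested. For scale, C1qtnf12 ranged from 1.08 to 13.7 CPM and C1qtnf1 from 2.94 to 5.89 CPM. The 8 macrophage markers summed to 8.12 to 13 CPM per sample, with Cd14 the most abundant at 4.11 to 7.96 CPM, and 4 of the 8 could be tested. Ptprc, Adgre1 and Itgam had mean levels of at most 0.0167 FPKM. Lyz2 stood at 1.8 ± 0.535, 0.4 ± 0.08 and 0.93 ± 0.135 FPKM at days 0, 4 and 8 (SD, n = 3), with log2 changes of -2.10 (SE 0.32, edgeR adjusted p = 2.1e-05) and 1.25 (SE 0.36, adjusted p = 0.0093). Cd14 stood at 4.48 ± 0.516, 3.13 ± 0.298 and 2.7 ± 0.454 FPKM, with a whole-process change of -0.62 (SE 0.14, edgeR adjusted p = 0.00095). Mrc1 had means of 0.0133, 0.08 and 0.01 FPKM, Cd68 had means of 1.32, 1.3 and 1.49 FPKM, and Csf1r had means of 0.233, 0.38 and 0.333 FPKM. The 6 endothelial markers summed to 0.762 to 2.03 CPM, and Tie1 was listed in no sample. Pecam1 had means of 0.13, 0.133 and 0.257 FPKM at days 0, 4 and 8. As the only endothelial marker tested, it was called higher in the late phase (log2 change 1.01, SE 0.35, edgeR adjusted p = 0.027), where 4.24% of all genes were. It was also called higher in the whole process (1.10, SE 0.35, edgeR adjusted p = 0.011), where 10.3% of all genes were. Every day 8 sample of Pecam1, at 0.616 to 1.02 CPM, lay over the low-count filter's limit of 0.495 CPM. At day 4 the samples ranged from 0.305 to 0.548 CPM. Because Pecam1 passed the filter by the day 8 samples, where it was high, both calls are given as a description. Cdh5 had means of 0.147, 0.04 and 0.0167 FPKM and Tek of 0.137, 0.0167 and 0.04 FPKM at the same days, both highest at day 0. The 6 skeletal muscle markers summed to 11.8 to 12.4 CPM at day 0, 13.7 to 16 CPM at day 4 and 26.8 to 30.9 CPM at day 8. Most of it was Des, the gene of desmin, and Myod1 was listed in no sample. Of the 2 tested, Acta1 was called higher in the late phase (log2 change 1.16, SE 0.31, edgeR adjusted p = 0.0062), where 4.24% of all genes were. Both were called higher over the whole process (all genes 10.3%), Des by 1.25 (SE 0.08, edgeR adjusted p = 8.7e-10) and Acta1 by 1.05 (SE 0.31, adjusted p = 0.0057). Of the sensory neuron markers only Snap25 passed the filter on low counts, with 2.31 to 2.53 CPM in the day 4 and day 8 samples, while Tubb3 and Prph, too low to test, were highest at day 0.

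Of the 8 preadipocyte markers, 2 were called lower in the early phase (Dlk1 and Ly6a), 1 higher in the late phase (Dlk1), and 2 lower in the whole process (Ly6a and Cd34). The matching shares of all genes were 7.98%, 4.24% and 7.7%. By adjusted p alone (edgeR), 1 marker was higher and 7 lower in the early phase (all genes 35.5% and 33.7%), 5 and 1 in the late phase (22.5% and 22.7%) and 4 and 3 in the whole process (34.8% and 36.2%). Those higher over the whole process were Col1a1, Col1a2, Pdgfra and Pdgfrb, and the median log2 fold changes of the list were -0.52, 0.63 and 0.13. Dlk1 fell by 2.13 on the log2 scale in the early phase (SE 0.06, edgeR adjusted p = 3.4e-14) and rose by 1.24 in the late phase (SE 0.06, adjusted p = 9.3e-11). Of the 10 adipocyte markers, Slc2a4, Lep and Cfd (3 genes) were called higher from day 4 to day 8, as were 4.24% of all genes.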
